A study of Mus musculus with 4 samples.

Results

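SCL occupancy was examined at the loci of 5 genes, Gata1, Gata2 and Gata3, which encode the GATA factors of blood and lymphoid cells, and Zfpm1 and Zfpm2, which encode the Friend of GATA (FOG) cofactors FOG1 and FOG2. An SCL peak was counted as a member when the protein-coding transcription start site (TSS) nearest to its summit belonged to one of these genes in the GENCODE vM1 annotation of the mm9 mouse genome, with the gene model Gm20388 left out as a source of TSSs. By this rule 27 of the 12885 peaks in the list were members, 4 at Gata1, 5 at Gata2, 1 at Gata3, 10 at Zfpm1 and 7 at Zfpm2. The list holds more peaks than the loci the study counts as bound, and the settings of the filter applied after peak calling were not found, so weak members may lie outside the study's own set. The rule used position alone. The 5 genes were, however, chosen with earlier results of these data known, so their counts, strength and sequence were not free of that choice.

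SCL, also named TAL1, belongs to the basic helix-loop-helix proteins, and no blood forms without it. Its binding was mapped by chromatin immunoprecipitation and sequencing (ChIP-seq) in FLK1+ mesoderm sorted at day 3.5 from embryoid bodies, the aggregates in which embryonic stem (ES) cells differentiate, all from the wild-type J1 line of strain C57Bl/6 X Sv129. A rabbit antiserum to SCL was used for 2 ChIP libraries, and 2 input libraries held chromatin that was not enriched. The list was called on the merged libraries, so no value below carries a replicate error or a test over samples, and a list of peaks holds no expression values against which the sorted cells could be checked.

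GATA factors bind the bases GATA through zinc fingers, and FOG proteins do not need to touch DNA to act: they bind a zinc finger of the GATA factor and bring in the corepressors NuRD and CtBP. GATA2 acts in blood stem and progenitor cells, GATA1 in red cells and megakaryocytes, where it takes over sites from GATA2 and works with FOG1, GATA3 in T cells, and FOG2 with GATA4 in the heart. SCL pairs with an E protein on E-boxes, and LMO2 and LDB1 bridge this pair to a GATA factor, so that SCL complexes are known for composite sites in which an E-box, or its CTG end, lies a short way upstream of a GATA motif.

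The sequence under a summit shows which of these elements lay there. Each line gives 50 bp on each side of a summit, 101 bases in all, read 5′ to 3′ in the direction of the gene. A peak is named by its gene and the distance in bp from the summit to the gene's reference TSS, negative upstream and positive downstream. Capitals mark 3 elements on either strand: the GATA motif (AGATAA or AGATAG or TGATAA or TGATAG), the E-box (CANNTG) and the half-site composite, CTG followed after 7 to 9 bases by GATA, of which the CTG and the GATA are in capitals. All 4 windows of Gata1 are shown because their elements and arrangements differed.
Gata1 -25617 (chrX:7570603-7570703, minus strand): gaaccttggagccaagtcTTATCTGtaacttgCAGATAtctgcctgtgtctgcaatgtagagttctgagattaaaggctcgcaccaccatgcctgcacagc
Gata1 -3586 (chrX:7548572-7548672, minus strand): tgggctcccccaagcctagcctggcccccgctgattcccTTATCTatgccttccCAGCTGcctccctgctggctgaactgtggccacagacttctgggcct
Gata1 -533 (chrX:7545519-7545619, minus strand): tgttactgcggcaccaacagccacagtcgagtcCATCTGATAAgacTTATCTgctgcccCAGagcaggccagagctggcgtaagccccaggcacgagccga
Gata1 +1605 (chrX:7543381-7543481, minus strand): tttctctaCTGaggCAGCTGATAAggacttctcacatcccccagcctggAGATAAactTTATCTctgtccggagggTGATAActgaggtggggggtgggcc

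The windows of the strongest peaks of Gata2 and of the single Gata3 peak follow. Of the 5 windows of Gata2, that of Gata2 +9331 was the only one with an E-box, a GATA motif and the ETS motif (AGGAA) together.
Gata2 -3096 (chr6:88140739-88140839, plus strand): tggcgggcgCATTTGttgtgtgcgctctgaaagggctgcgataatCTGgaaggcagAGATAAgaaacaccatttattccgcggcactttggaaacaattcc
Gata2 -2002 (chr6:88141833-88141933, plus strand): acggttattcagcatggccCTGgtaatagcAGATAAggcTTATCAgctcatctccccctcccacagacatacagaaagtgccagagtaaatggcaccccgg
Gata2 +9331 (chr6:88153166-88153266, plus strand): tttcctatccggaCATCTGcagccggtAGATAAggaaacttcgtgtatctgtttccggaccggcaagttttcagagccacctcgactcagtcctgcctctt
Gata3 +444907 (chr2:9355270-9355370, minus strand): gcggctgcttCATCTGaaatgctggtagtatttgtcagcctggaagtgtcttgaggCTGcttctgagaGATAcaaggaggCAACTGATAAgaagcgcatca

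At the FOG genes, the strongest windows of Zfpm1 are shown with a stronger peak inside the gene that the rule gave to its neighbour Trhr2 (Zfpm1 +39689). For Zfpm2, 2 windows with 2 GATA motifs each are shown, of which Zfpm2 +170016 was its strongest peak.
Zfpm1 +2711 (chr8:124808700-124808800, plus strand): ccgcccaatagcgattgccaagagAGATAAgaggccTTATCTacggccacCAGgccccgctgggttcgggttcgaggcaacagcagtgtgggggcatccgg
Zfpm1 +4980 (chr8:124810969-124811069, plus strand): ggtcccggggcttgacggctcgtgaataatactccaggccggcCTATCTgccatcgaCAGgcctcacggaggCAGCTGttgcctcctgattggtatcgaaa
Zfpm1 +27378 (chr8:124833367-124833467, plus strand): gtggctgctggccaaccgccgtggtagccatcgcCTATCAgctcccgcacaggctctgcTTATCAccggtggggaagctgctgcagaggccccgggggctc
Zfpm1 +31439 (chr8:124837428-124837528, plus strand): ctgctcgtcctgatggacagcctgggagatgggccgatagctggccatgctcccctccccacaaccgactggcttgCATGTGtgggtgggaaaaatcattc
Zfpm1 +39689 (chr8:124845678-124845778, plus strand): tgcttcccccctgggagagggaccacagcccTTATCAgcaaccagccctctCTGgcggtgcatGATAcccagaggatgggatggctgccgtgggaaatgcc
Zfpm2 +170016 (chr15:40656554-40656654, plus strand): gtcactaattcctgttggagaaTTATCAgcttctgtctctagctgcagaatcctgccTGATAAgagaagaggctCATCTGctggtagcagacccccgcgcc
Zfpm2 +245415 (chr15:40731953-40732053, plus strand): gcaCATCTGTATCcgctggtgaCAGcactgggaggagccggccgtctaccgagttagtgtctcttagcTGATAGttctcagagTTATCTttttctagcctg

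SCL peaks were numerous at 4 of the 5 genes. Of the 22379 protein-coding genes, 28.9% had at least 1 peak by the same rule, 6.53% had at least 3 and 2.10% had at least 5, against 5, 4 and 3 of the 5 members. Zfpm1 stood highest, and 55 genes, or 0.246% of all, had as many peaks as Zfpm1 or more. For Zfpm2 this share was 0.809%, for Gata2 2.1%, for Gata1 3.61% and for Gata3 28.9%. Gene size differs widely among them, from 13.1 kb for Gata2 and 18.8 kb for Gata1 to 33.0 kb for Gata3, 55.1 kb for Zfpm1 and 449.6 kb for Zfpm2. The count also depends on how far the next gene lies. From the summits of Zfpm2 the TSS of the next protein-coding gene was 407685 to 714738 bp away. With a limit of 100 kb to the TSS, the count of Zfpm2 was 5 in place of 7.

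**Figure D1:**
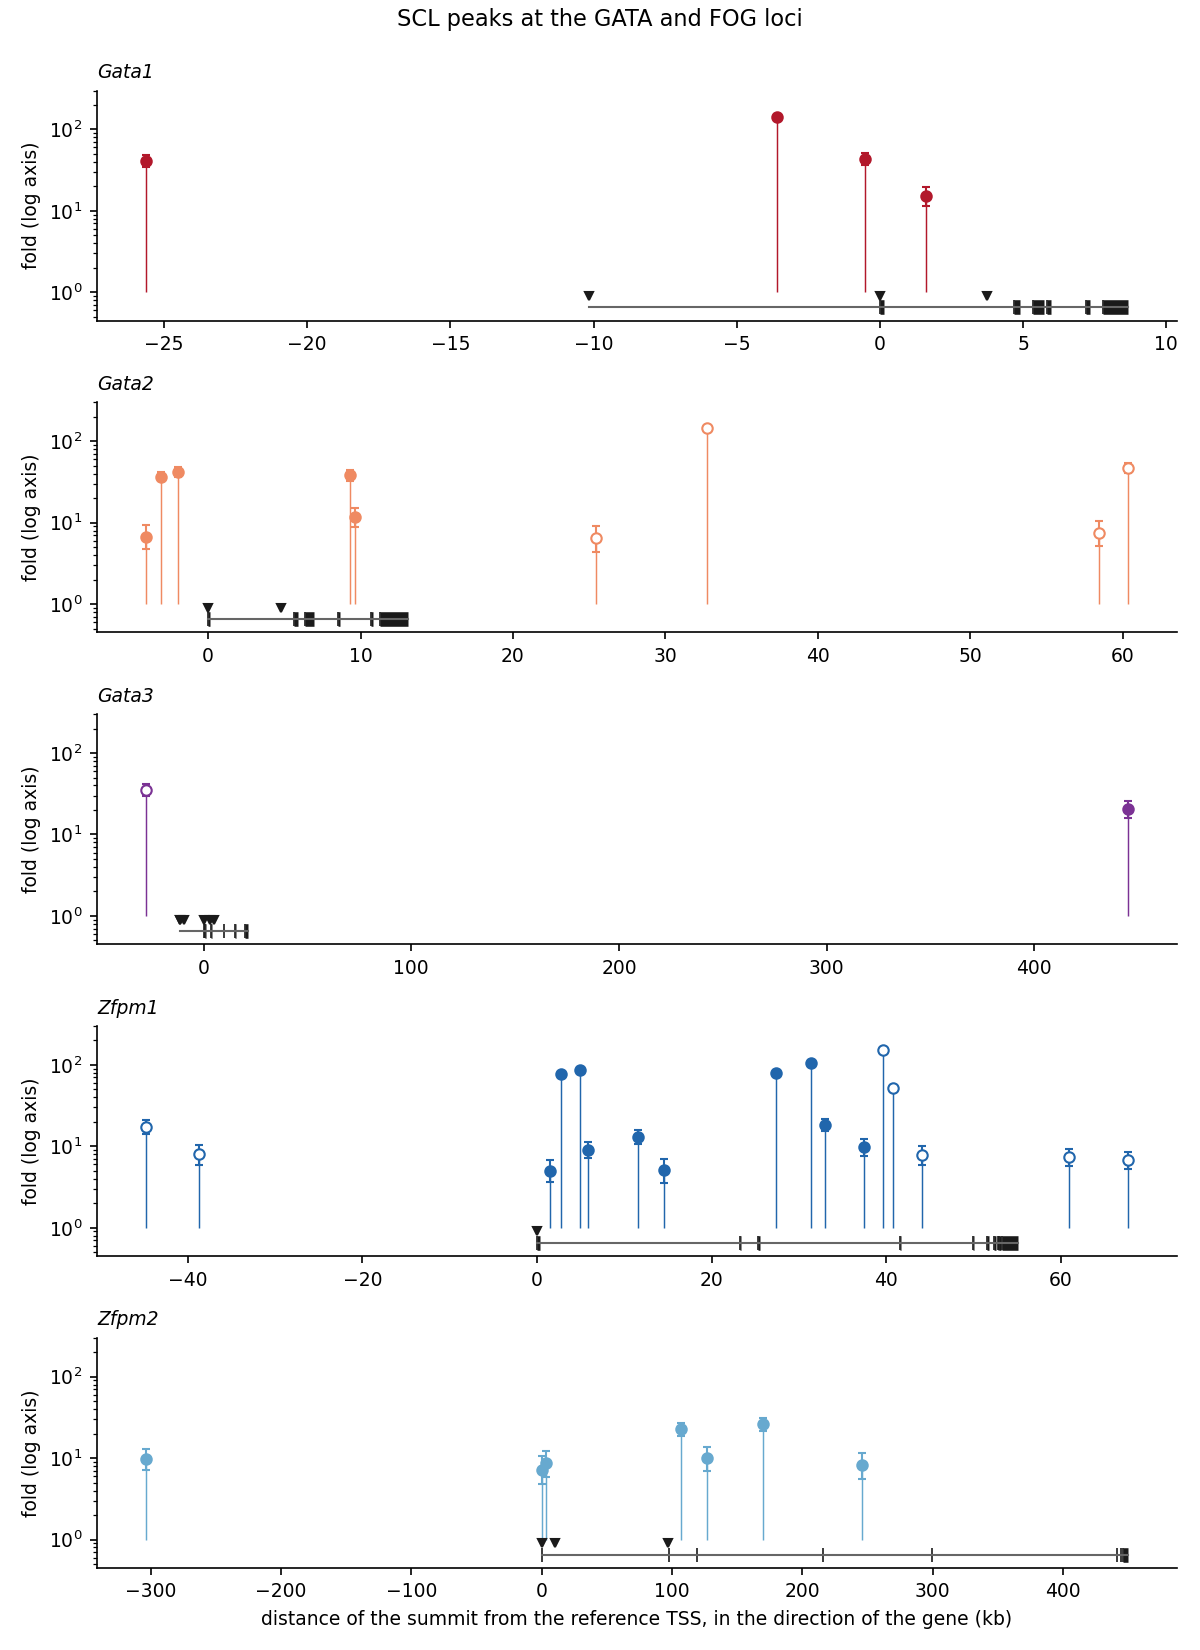
Fold enrichment (log axis) of each SCL peak against the distance in kb of its summit from the reference TSS, in the direction of the gene, with a scale of its own for each gene. Filled points are the 27 member peaks, open points are peaks nearby or in the gene whose nearest TSS belongs to another gene, bars are 95% counting intervals, and below are the gene (line), the exons of its reference transcript (blocks) and its annotated TSSs (triangles). The 10 member peaks of Zfpm1 lie in its introns, while the only peak given to Gata3 lies 445 kb downstream.

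The strength of a peak is given as its fold enrichment and as its pileup, the count of ChIP fragments that cover the summit. The fold is the pileup plus 1 over the local background plus 1, which brings it below the plain ratio, most where the background is low. Intervals on both are Poisson 95% intervals of the pileup and cover counting error only. The median fold of the 27 member peaks was 18.1 (95% interval of the median from order statistics, 9.71 to 41.4), beside 11.1 for all peaks, with a range of 5.04 to 143. A fold of at least 10 was reached by 17 of 27 members and 56.6% of all peaks, and a fold of at least 100 by 2 of 27 members and 1.67% of all peaks. Ordered by the fold of their strongest member peak, the genes ran from Gata1 through Zfpm1, Gata2 and Zfpm2 to Gata3. The first pair exchanged places by the other measures: the highest pileup was 738 (686 to 793) at Zfpm1 and 489 (447 to 534) at Gata1, and the highest −log10 p was 1117 and 919. In the order by fold, the counting intervals of neighbours in this order were apart, except those of Zfpm2 and Gata3, which overlapped.

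**Figure D2:**
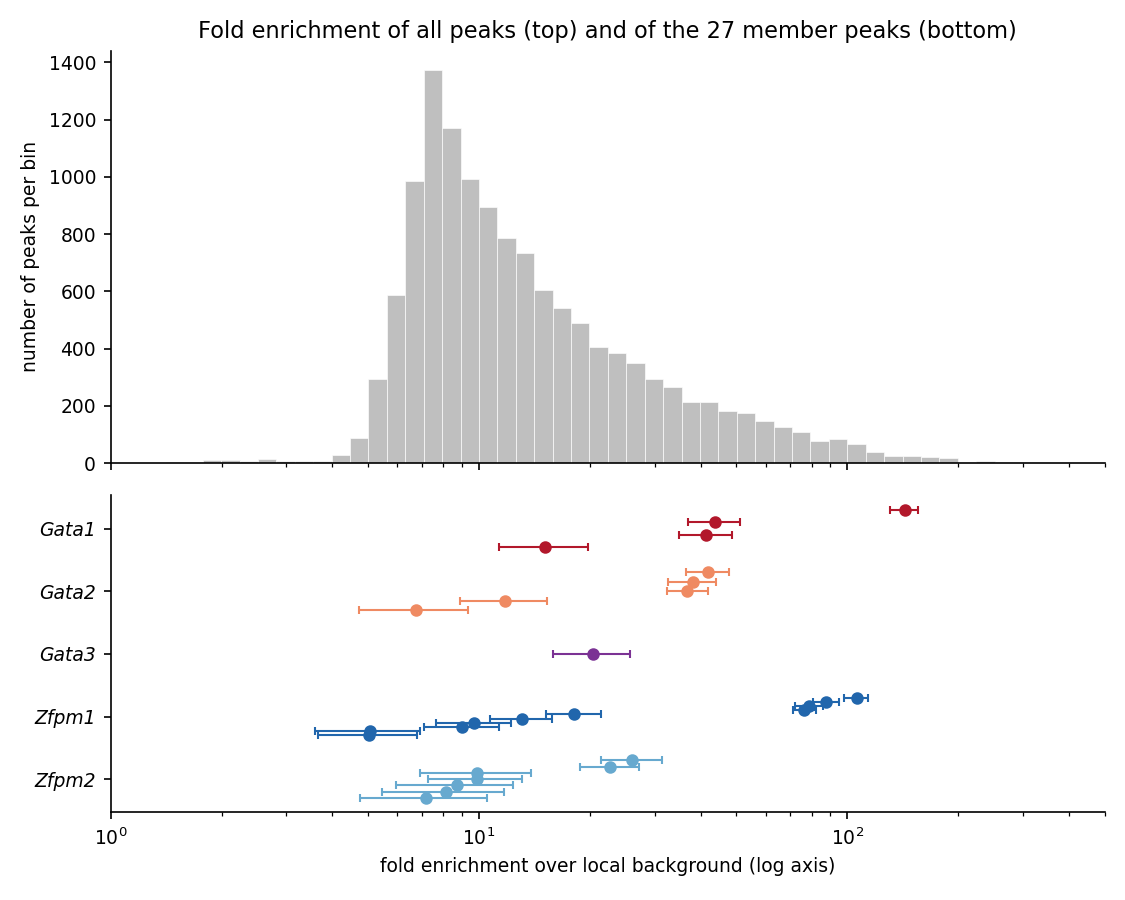
Histogram of the fold enrichment of all 12885 peaks (top, number of peaks per bin) and the folds of the 27 member peaks by gene (bottom), on a shared log axis. Points are single peaks and bars are 95% counting intervals. The median of all peaks was 11.1, and only Gata1 and Zfpm1 have a member peak above 100.

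Gata1, the gene of the GATA factor of red cells and megakaryocytes, lies on the minus strand of chromosome X and has its reference TSS at 7545036, the start of the transcript ENSMUST00000033502.7. Its 4 peaks spanned 27.2 kb, and 1 of them was among the strongest of the list. The peak Gata1 -3586 had a fold of 143 (130.3 to 156) from 489 fragments, and 99.4% of all peaks had a fold as high or lower. By −log10 p this share was 98.3%, and by pileup it was 97.3%. The peak Gata1 -3586 thus stood somewhat lower by these 2 measures. It fell upstream of the reference TSS, inside an intron of a longer annotated transcript, in the stretch where an enhancer active in blood cells is known from transgenic mice, although coordinates were not compared. Its window held a single GATA motif and an E-box, arranged as CTG and GATA with 10 bases between them, 1 more than the composite rule allows.

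Gata1 -533 was the nearest of all 27 member peaks to a TSS. Its fold was 43.7 (37.0 to 51.2) from 149 fragments. In its printed window an E-box runs into a GATA motif, a second GATA motif faces the first after 3 bases, and a composite with a spacing of 8 bases lies on the opposite strand. The most distant peak, Gata1 -25617, lay between genes and had a fold of 41.4 (34.9 to 48.7) from 141 fragments, so that its interval overlapped that of Gata1 -533. Its window was without an E-box and held composites with a spacing of 9 bases on both strands, which share bases.

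Gata1 +1605, in intron 1, was the weakest peak of the gene. It had a fold of 15.1 (11.3 to 19.8) from 51 fragments, with an interval apart from those of the other three. It nonetheless had the most GATA motifs of any member window, 4, of which 2 face each other after 3 bases, beside an E-box and a composite with a spacing of 8. At this gene the strongest peak thus had 1 GATA motif and the weakest 4. None of the 4 windows held the ETS motif. All 4 summits had the lowest background that occurs in the list, 2.43 fragments, which was also the median for the peaks of chromosome X.

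Gata2, the gene of the GATA factor of blood progenitors, lies on the plus strand of chromosome 6 with a distal TSS at 88143885 and a proximal TSS at 88148658. Its 5 peaks fell into 2 groups within 13.7 kb, 3 upstream of the distal TSS and 2 in intron 4. The 3 strongest could not be ordered. Gata2 -2002 had a fold of 41.8 (36.4 to 47.7) from 216 fragments, Gata2 +9331 had 38.0 (32.6 to 44.1) from 172 and Gata2 -3096 had 36.8 (32.4 to 41.8) from 244. Neighbours in this order had intervals that overlapped, and by pileup Gata2 -3096 came first. Its background of 5.65 fragments was the highest of the 5 member peaks of the gene.

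All 3 of these strong windows held the composite at a spacing of 9 bases. In Gata2 -2002 the GATA motif of the composite is followed after 3 bases by a second one facing it. In Gata2 +9331 the CTG of the composite is the end of an E-box, CATCTG, and the GATA motif AGATAA overlaps an ETS motif in the letters AGATAAggaa. Intron 4 of Gata2 is where an enhancer needed for blood stem cell emergence is known, with an E-box and a GATA motif side by side.

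The other 2 peaks of Gata2 were weaker. Gata2 +9662 (chr6:88153409-88153894) lay 331 bp from Gata2 +9331 by summit and had a fold of 11.8 (8.86 to 15.3) from 53 fragments, with neither a GATA motif nor an E-box in its window. Gata2 -4062 (chr6:88139503-88140010) had a fold of 6.74 (4.73 to 9.34) from 34 fragments and held 2 GATA motifs. Their intervals overlapped each other and stood apart from those of the 3 strong peaks.

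Further downstream of Gata2, 4 peaks within 50 kb of the gene had the TSS of Dnajb8 as their nearest and so were no members. The strongest of them, Gata2 +32754 (chr6:88176197-88177029), lay 4.38 kb from that TSS and had a fold of 145 (138 to 153) from 1362 fragments, more than any member peak of Gata2. Next came Gata2 +60330 (chr6:88203920-88204433), with a fold of 46.8 (40.5 to 53.9) from 193 fragments and a composite with a spacing of 8. The remaining 2, Gata2 +25451 and Gata2 +58426, had folds of 6.39 and 7.42. Which gene any of these peaks serves was not tested.

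Gata3, the gene of the GATA factor of T cells, lies on the minus strand of chromosome 2 with its reference TSS at 9800227. No SCL peak lay in the gene or within 10 kb of it. The single peak that the rule gave to Gata3 (chr2:9355118-9355467) lay 445 kb downstream of the reference TSS and 440.0 kb from the nearest Gata3 TSS, in a stretch between genes where the next protein-coding gene, 4930412O13Rik, was about as far, at 447559 bp. It had a fold of 20.4 (15.9 to 25.7) from 69 fragments at the lowest background, and its window held a composite with a spacing of 9 and an E-box, CAACTG, that runs into a GATA motif. A closer peak, 27.6 kb upstream of the reference TSS (chr2:9827557-9828074), had Taf3 as its nearest gene. It had a fold of 35.3 (29.6 to 42.0) from 129 fragments, with an E-box and no GATA motif.

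Zfpm1, the gene of FOG1, lies on the plus strand of chromosome 8 with its only annotated TSS at 124806039. All 10 of its peaks fell in introns, 6 in intron 1 and 4 in intron 3, over 35.9 kb. They split into a strong and a weak set. The 4 strong peaks were Zfpm1 +31439 with a fold of 106 (98.1 to 114), Zfpm1 +4980 with 87.6 (80.9 to 94.7), Zfpm1 +27378 with 78.7 (72.0 to 85.9) and Zfpm1 +2711 with 76.5 (71.1 to 82.2). Their pileups were 667, 633, 505 and 738 fragments. The next peak in order of fold was 4.23 times weaker, with intervals well apart.

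Sequence varied among the strong peaks of Zfpm1. Zfpm1 +2711 held 2 GATA motifs facing each other after 6 bases and a composite with a spacing of 9, and Zfpm1 +4980 held a composite with the same spacing and an E-box. Zfpm1 +27378 held 2 GATA motifs and neither an E-box nor a composite. Zfpm1 +31439, the strongest member peak of the gene by fold and the widest of all 27 at 1466 bp, held an E-box and no GATA motif. The order depended on the measure, since by pileup Zfpm1 +2711 came first.

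The 6 weaker peaks of Zfpm1 had folds from 5.04 to 18.1. Zfpm1 +32978 (chr8:124838808-124839304) had a fold of 18.1 (15.2 to 21.5) from 131 fragments, and Zfpm1 +11614 (chr8:124817059-124817969), with 3 GATA motifs, had 13.1 (10.7 to 15.8) from 108. Zfpm1 +37415 (chr8:124842827-124843577) followed with 9.71 (7.62 to 12.2) from 71 fragments, and Zfpm1 +5825 (chr8:124811643-124812195) with 9.0 (7.09 to 11.3) from 74. The weakest were Zfpm1 +14584 (chr8:124819996-124821043), with 5.05 (3.59 to 6.91) from 37 fragments, and Zfpm1 +1479 (chr8:124807313-124807744), with 5.04 (3.65 to 6.79) from 41. These last were near the lower end of the list, where 1.51% and 1.5% of all peaks had a fold as low or lower.

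Background was higher at Zfpm1 than at the other members. It ran from 5.3 to 8.66 fragments over the 10 summits, beside a median of 3.67 for all peaks and 5.24 for the peaks of chromosome 8. At the other 4 genes it ran from 2.43 to 5.65. The background, plus 1, is the denominator of the fold, so that 41 fragments at Zfpm1 +1479 gave a lower fold than 25 at Zfpm2 +604. The part of background in the order of the genes was not tested.

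**Figure D3:**
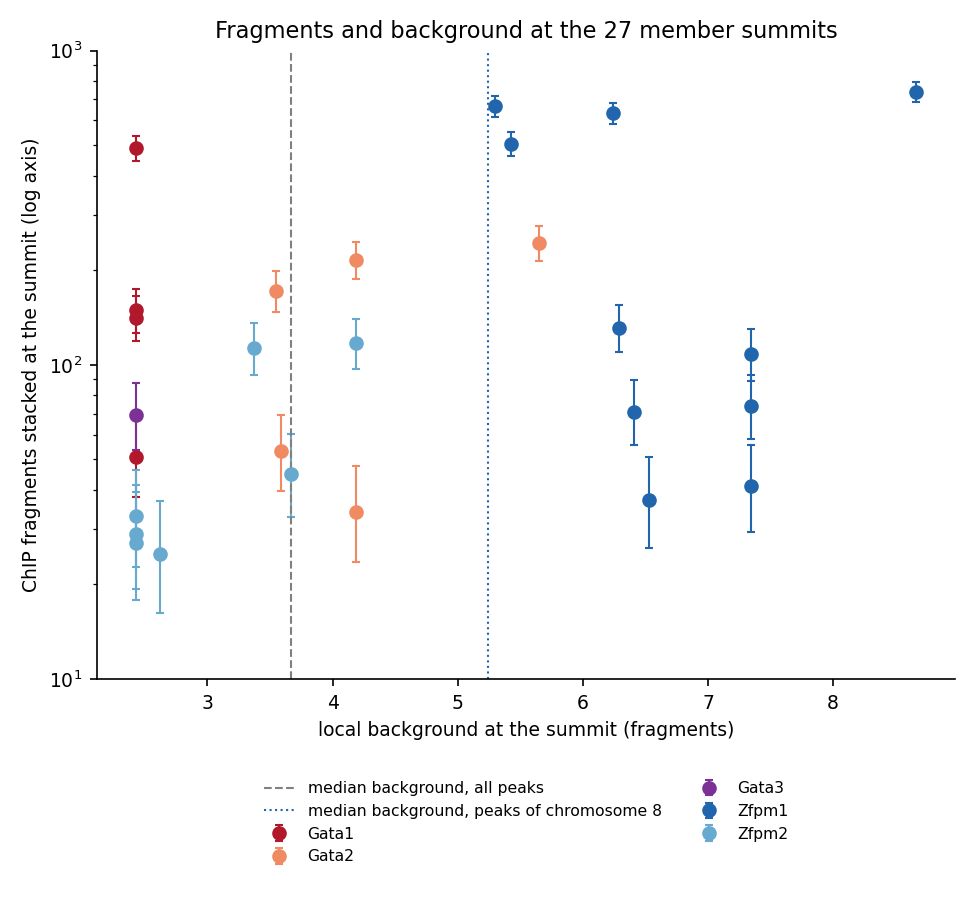
ChIP fragments stacked at each of the 27 member summits (log axis, bars are 95% counting intervals) against the local background in fragments, coloured by gene. All 10 Zfpm1 summits lie to the right of the dotted line, the median background of the peaks of chromosome 8 (5.24), while the 4 Gata1 summits sit at the lowest background of 2.43.

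The edge of the rule fell within intron 3 of Zfpm1. Zfpm1 +37415 was a member because its summit lay 37.4 kb from the Zfpm1 TSS and 41.2 kb from that of Trhr2, whereas Zfpm1 +39689 lay 39.7 kb from the former and 38.9 kb from the latter. Zfpm1 +39689 (chr8:124845331-124846189) had a fold of 152 (146 to 159) from 2228 fragments and ranked 5 among all peaks by −log10 p. Its interval stood above those of all 10 member peaks of Zfpm1 and overlapped that of Gata1 -3586. Its window held a composite with a spacing of 9 and a GATA motif outside it. Next to it, also in intron 3, Zfpm1 +40776 (chr8:124846393-124847121) had a fold of 51.3 (47.1 to 55.8) from 536 fragments, and in intron 4 Zfpm1 +44144 (chr8:124849968-124850671) had 7.76 (5.94 to 9.98) from 59. Outside the gene, 4 peaks within 50 kb had folds from 6.78 to 17.4, 2 upstream nearest to Gm22 and 2 downstream nearest to Trhr2.

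Zfpm2, the gene of FOG2, lies on the plus strand of chromosome 15 with its reference TSS at 40486588. Its 7 peaks were spread over 549 kb, with a median gap of 59.2 kb between summits, beside 1.03 kb at Gata2, 2.97 kb at Zfpm1 and 3.05 kb at Gata1. The strongest were Zfpm2 +170016 in intron 3, with a fold of 26.1 (21.5 to 31.3) from 113 fragments, and Zfpm2 +106806 (chr15:40593022-40593772) in intron 2, with 22.7 (18.8 to 27.2) from 117. Their intervals overlapped. Both windows held an E-box and a GATA motif, and neither held the composite.

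The other 5 peaks of Zfpm2 could not be ordered, since each interval overlapped the next. Zfpm2 +126958 (chr15:40613288-40613679) had a fold of 9.9 (6.91 to 13.8) from 33 fragments, Zfpm2 -303363 (chr15:40183065-40183350) had 9.85 (7.25 to 13.1) from 45 and Zfpm2 +3690 had 8.74 (5.95 to 12.4) from 29. Zfpm2 +245415 had 8.15 (5.47 to 11.7) from 27 fragments, and Zfpm2 +604 (chr15:40487061-40487373), just inside intron 1, had 7.18 (4.75 to 10.5) from 25. The weak peak Zfpm2 +245415 held a composite at a spacing of 9. Zfpm2 -303363, with a composite at a spacing of 7, and Zfpm2 +604 held neither a GATA motif nor an E-box.

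The members were then set beside all peaks for what the rule did not use. A GATA motif lay in 21 of 27 member windows and in 73.2% of all windows, an E-box in 17 of 27 and 52.6%, and the composite in 12 of 27 and 32.9%. Neither a GATA motif nor an E-box was found in 3 of 27 and 12.1%. The Wilson 95% intervals of these 4 shares of members all held the share of all peaks. At least 2 GATA motifs lay in 11 of 27 member windows and 22.0% of all windows, and the ETS motif in 8 of 27 and 51.9%, shares that lay outside the members' intervals of 24.5 to 59.3% and 15.9 to 48.5%. Windows of 1 locus are not independent draws, so these intervals are a guide to counting error only. Of the 8 windows with an ETS motif, 4 were at Zfpm2, 2 at Gata2 and 2 at Zfpm1.

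The spacing within the composite was most often 9 bases, in 8 member windows and 18.3% of all windows. A spacing of 8 occurred in 2 member windows and 12.3% of all, a spacing of 7 in 2 and 3.6%, and a spacing of 10 in 5 and 6.46%. GATA motifs that face each other were defined as a GATA motif followed after 0 to 10 bases by the reverse complement of any GATA motif. They lay in 5 of 27 member windows and in 1.44% of all windows. These were the windows of Gata1 -533, Gata1 +1605, Gata2 -2002, Zfpm1 +2711 and Zfpm2 +245415. This arrangement was looked for after the windows of the members had been seen, so its share is a description only.

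**Figure D4:**
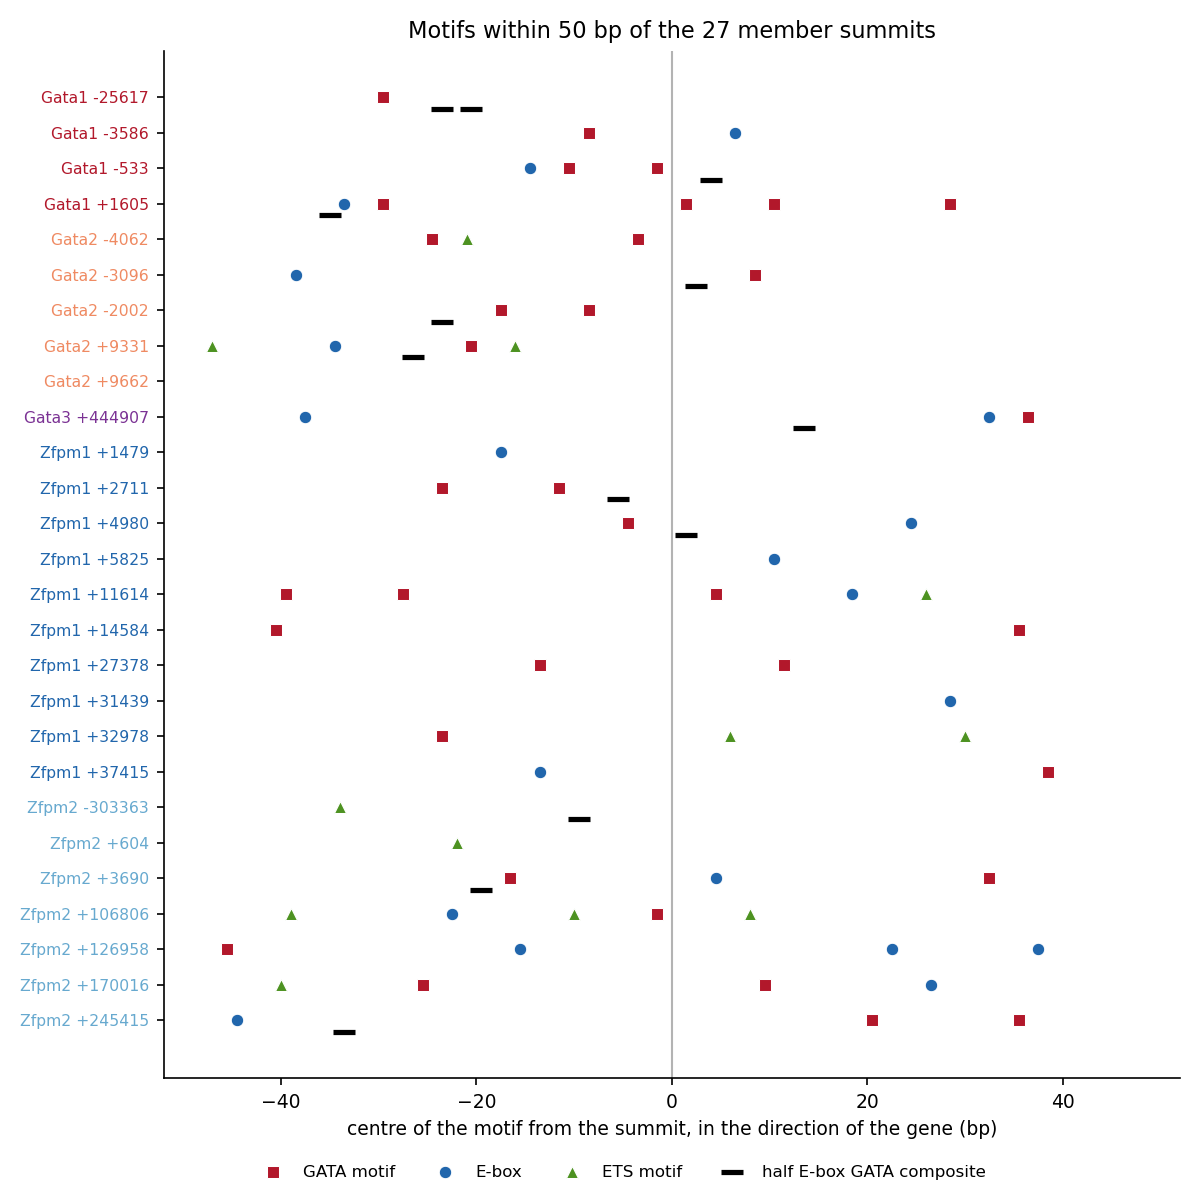
Position of the centre of each motif in bp from the summit, in the direction of the gene, for the 27 member windows. Squares are GATA motifs, circles E-boxes, triangles ETS motifs and short bars the half-site composite. The row of Gata2 +9662 is empty, Gata1 +1605 has 4 squares, and triangles are absent from the rows of Gata1.

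In position, 21 of 27 member summits lay in an intron of a protein-coding gene, beside 41.8% of all peaks, and 6 of 27 lay between genes, beside 54.7%. No member summit lay in an exon, beside 3.45% of all peaks, and 0 of 27 allows a share of up to 12.5% by the Wilson interval. Within 1 kb of a TSS were 2 of 27, Gata1 -533 and Zfpm2 +604, beside 7.59% of all peaks. The median distance to the nearest TSS was 5.83 kb, beside 24.1 kb for all peaks. The rule is itself one of position, and 10 of the 21 intronic summits belong to Zfpm1. Member peaks had a median width of 497 bp and a median GC content of the window of 55.4%, beside 397 bp and 50.5% for all peaks, and among the members the GC content was highest at Zfpm1, with a median of 60.4%.

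**Figure D5:**
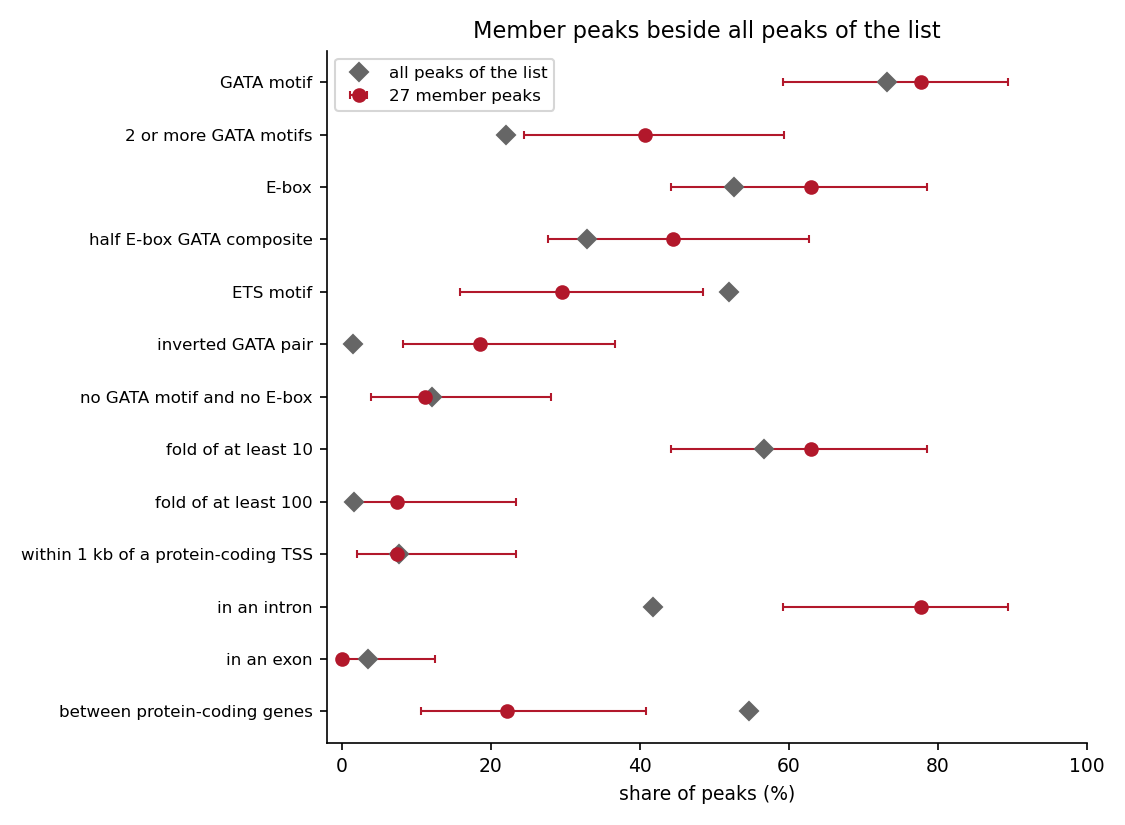
Share of peaks (%) with each motif, strength or position among the 27 member peaks (circles, bars are Wilson 95% intervals) and among all 12885 peaks (diamonds). The share with a GATA motif is close in both, at 77.8% of members and 73.2% of all, while the ETS motif is at 29.6% and 51.9%.

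Genes that act with the members were counted by the same rule, beside the 28.9%, 6.53% and 2.10% of all protein-coding genes with at least 1, 3 and 5 peaks. Of 6 other genes of GATA-type zinc finger proteins, 4 had a peak and 3 had at least 3. These were Gata4 and Gata6, the GATA factors of heart and endoderm, and Trps1, a repressor that binds GATA sites, with 5 peaks each. The highest fold among these genes, at Gata4, was 83.4 (75.2 to 92.3). The strongest peak lay 63.6 kb from the TSS at Gata4, 25.7 kb at Gata6 and 319 kb at Trps1. A list of 15 genes held those of the corepressors NuRD and CtBP, through which FOG proteins act, and Tacc3, which belongs to neither. Of these 15, 7 had a peak, 2 had at least 3 and 0 had at least 5. The genes with 3 peaks were Gatad2a, a subunit of NuRD, and Ctbp2, with strongest folds of 20.1 and 22.7, and the highest fold was 28.1 (23.1 to 33.9) at Tacc3.

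Of 14 genes known as GATA1 targets in red cells and megakaryocytes, Zfpm1 itself among them, 12 had a peak, and Zfpm1 was the only one with at least 5. The strongest peak among these targets, 0.124 kb from the TSS of Nfe2, the gene of an erythroid transcription factor, had a fold of 191 (179 to 203) from 1002 fragments and 2 composites in its window. The 2 without a peak were the globin genes Hba-a1 and Hbb-b1. Each has a near-identical copy in its cluster, and whether this bears on their counts was not tested.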

How the data were processed

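SCL ChIP-seq was performed on day 3.5 FLK1+ cells, with 2 ChIP and 2 input libraries, grouped by their labels. Paired-end reads were mapped by the authors to mm9 with Bowtie 1.1.2. They removed duplicates, called peaks with MACS2 2.0.10 (versions per the submitters' processing notes) on the merged libraries and set the list by the irreproducible discovery rate. The deposited fold enrichment is a ratio, ChIP fragments at the summit plus 1 over the background around the peak plus 1, and the deposited −log10 p and −log10 q are those of MACS2. The deposited score equalled 10 times the −log10 p cut to a whole number in 12885 of 12885 peaks and was not used. Depth per library is not given in the list. Reads with many matching places were dropped by the authors, which lowers peaks in repeated sequence.

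Pileup and background were solved from fold and −log10 p, which MACS2 derives from them. The solution matched to within 0.001 in 99.9% of peaks, with a largest mismatch of 0.00606. Pileup intervals are exact Poisson 95% intervals, and those of the fold carry them at a fixed background. The solver and the motif search were tested on simulated data. Genes and TSSs (70063 of 22379 protein-coding genes) came from GENCODE vM1 and sequence from the NCBIM37 genome, the build of mm9, with coordinates counted from 1. Motifs were searched on both strands in windows of 101 bases. Python 3.11.15, numpy 2.4.6, scipy 1.17.1, pandas 2.3.3, pysam 0.24.0 and matplotlib 3.10.9 were used.

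The members and the gene lists were chosen with earlier results of these data known. Every peak of the 5 members is named, with genes of the fixed lists that had at least 3 peaks or the highest fold of their list, and genes that share a member's locus. A gene of these lists and a window are not reported here. The 2 globin genes were named after their counts were seen. The facing GATA motifs, the composite with a spacing of 6 to 10 and the count inside gene bodies were added after seeing the data. Alternatives varied the TSS source, distance, threshold, joining of peaks, window and measure of strength.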

Additional observations from a re-analysis of the deposited data

How the results depend on the processing

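No paired analysis was possible because all libraries were merged before calling and none has a value of its own, and for the same reason no library could be left out. Of 105 alternative values, 82 stayed within the limits set (for the median fold, its interval of 9.71 to 41.4), 23 moved and 0 reversed. Some could not move, since a fold threshold that leaves a gene any peak leaves its strongest by fold. Counts, shares and folds also have no direction to reverse, so this tally is not a measure of robustness. With a fold of at least 10 the members fell from 27 to 17 peaks, with 6 at Zfpm1 and 2 at Zfpm2. The median fold, which this threshold raises by construction, was then 38.0 for members and 18.2 for the 56.6% of all peaks left. At −log10 q values from 50 upwards there were 15 members, with 3 at Gata2, 6 at Zfpm1 and 2 at Zfpm2, and 40.6% of all peaks, with median folds of 41.4 and 23.9. Gata2 had 2 peaks in the gene body alone and 3 after joining peaks within 500 bp. The count for Gata3 was 0 with TSSs of all biotypes, within 10 kb of the gene, in the gene body alone and with a limit of 100 kb to the TSS. Chosen by −log10 p or by pileup, the strongest Gata2 peak had a fold of 36.8, and by pileup the strongest peak of Zfpm1 had 76.5 and of Zfpm2 22.7. Within 25 bp of the summit the shares of members fell to 55.6% for the GATA motif, 33.3% for the E-box and 22.2% for the composite, beside 48.1%, 33.0% and 19.0% of all peaks. Over the whole peak the E-box share was 92.6%, beside 90.1% of all peaks. At those −log10 q values the GATA share was 93.3%, beside 79.8%. Within 5 kb of a TSS lay 48.1% of members, beside 20.7% of all peaks, in a set chosen by position. Stricter thresholds and shorter windows or distances count fewer peaks by construction, and the cause of the other shifts was not tested. The variation between differentiations is not covered by any interval.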
